A study of Homo sapiens with 6 samples.

Results

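The 9 genes described here are markers of the megakaryocyte side of the K562 cell and genes of integrins and cell adhesion: ITGA5, ITGB1, ITGA4 and ITGA2B, which encode integrin subunits, GP1BB, CD9 and CD44, which encode other surface proteins, and RUNX1 and FLI1, which encode transcription factors. They were taken as named genes and not by a rule on measured change, though earlier results of these data were known. Every row of the deposited table whose RefSeq protein accession belongs to one of them was used, and the reads were summed per gene. This gave 38 of the 109018 rows and 9 of the 19053 genes to which a symbol could be matched. Of the 9 genes, 5 passed the minimum level set for testing, 2 were under it and 2 had no read in any library.

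K562 is an established human chronic myeloid leukemia line that carries the Bcr-Abl fusion. Total RNA was sequenced from K562 cells made to express an shRNA against a lncRNA, named lncRNA-IIRX in the sample labels and lncRNA-IUR-5 in the study, and from control cells with an shRNA against luciferase. Per the study, the 3 sh-IUR-5 and 3 sh-luc libraries came from 3 independent groups of cells. Both kinds of cells were stable lines made with the same lentiviral shRNA vector, which also carries GFP. Vector, method of infection and the Bcr-Abl background were thus shared by all 6 libraries. Each line was infected with its own virus, so an effect of the infection itself cannot be told apart from one of the hairpin. The sh-IUR-5 hairpin was designed against the site below, which occurs at 1 place in hg38, chr11:95232933-95232953 on the plus strand, within exon 2 of a transcript of the LNCRNA-IUR gene (LNCRNA-IUR-205, GENCODE release 44). The target itself has no protein row, and its level was not analysed here.
sh-IUR-5 target: GCTAGTATCAGGTTTAAATAG

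Integrins are pairs of an alpha and a beta subunit that bind extracellular matrix or other cells and signal through talin, kindlin and other proteins at their cytoplasmic tails. Megakaryocytes, the platelet precursors, share a progenitor with red cells, and along that branch RUNX1, FLI1, GATA1 and NFE2 switch on surface genes such as ITGA2B with its partner ITGB3 (the platelet fibrinogen receptor) and GP1BB with its partners GP1BA, GP9 and GP5 (the receptor for von Willebrand factor). K562 cells lie near that branch point and are known to express both red cell genes and, at low levels or after induction, megakaryocyte genes.

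The reads counted per library ran from 21023739 to 23320543 in sh-luc and from 24325122 to 31481109 in sh-IUR-5. At these depths 3 reads on a row of 1 kb equal 0.0953 to 0.143 RPKM (reads scaled to row length and to the total counted in that library), which was taken as the limit of detection for counting error only. Among all 8872 genes tested by the edgeR quasi-likelihood test with TMM scaling (adjusted p under 0.05 by Benjamini-Hochberg), 49.7% passed, 26.5% of all tested genes being higher and 23.2% lower in sh-IUR-5, so that a passing gene was about as frequent as one that did not pass. Scaled to total reads, as RPKM is, in place of TMM, the share of called genes that were higher was 77.1% in place of 53.3%, and the median log2 fold change of all genes was 0.19 in place of 0.015. In the library descriptions replicates 2 and 3 of each group share a number that replicate 1 does not. They were also closer to each other (chi-square per gene of 5.46 in sh-luc and 3.63 in sh-IUR-5) than either was to replicate 1 (10.71 to 21.28), and a model term for this split changed no member's call. The 15 K562 and red cell markers looked up, the globins and TFRC among them, were all expressed at testable levels. Their summed level was 25390 to 28450 RPKM in sh-luc and 20040 to 21110 RPKM in sh-IUR-5. The 16 lymphoid, myeloid and stromal markers summed to 3.56 to 4.23 RPKM in sh-luc and 2.88 to 3.42 RPKM in sh-IUR-5. Of these 16, 15 were under the minimum level and the defining markers MS4A1, MPO, ELANE, CDH5 and KDR had no read. The part of either marker list in the results below was not tested.

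The promoter windows of the 3 members that passed the test and of ITGA2B are shown first. ITGA5 and ITGB1 rose and GP1BB was lower with TMM scaling. ITGA2B, which was not in the main test, was lower in RPKM. Each line holds the 250 bases before a RefSeq transcription start (GRCh38.p14), 5′ to 3′ on the gene's strand, with capitals marking every match, on either strand, to 5 short motifs. These were AGATAA or, as its variant, TGATAA for the GATA factors, TGTGGT for the RUNX factors, GGAAG for the ETS factors, GGGCGG for the GC box of SP1-type factors and TTCNNNGAA for the STAT factors. The windows lie at chr12:54419267-54419516 (minus strand) for ITGA5, chr10:32958231-32958480 (minus strand) for ITGB1, chr22:19723289-19723538 (plus strand) for GP1BB and chr17:44389650-44389899 (minus strand) for ITGA2B.
ITGA5: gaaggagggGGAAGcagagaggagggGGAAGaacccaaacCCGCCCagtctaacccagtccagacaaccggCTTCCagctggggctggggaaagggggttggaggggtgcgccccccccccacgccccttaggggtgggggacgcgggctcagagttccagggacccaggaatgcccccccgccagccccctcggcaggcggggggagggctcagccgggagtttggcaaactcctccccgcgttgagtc
ITGB1: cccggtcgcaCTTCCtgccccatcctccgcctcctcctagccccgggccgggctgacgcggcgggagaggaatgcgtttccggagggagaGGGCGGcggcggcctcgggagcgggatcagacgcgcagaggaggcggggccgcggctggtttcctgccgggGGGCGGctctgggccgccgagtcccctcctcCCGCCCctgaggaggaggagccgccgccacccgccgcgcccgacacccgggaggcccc
GP1BB: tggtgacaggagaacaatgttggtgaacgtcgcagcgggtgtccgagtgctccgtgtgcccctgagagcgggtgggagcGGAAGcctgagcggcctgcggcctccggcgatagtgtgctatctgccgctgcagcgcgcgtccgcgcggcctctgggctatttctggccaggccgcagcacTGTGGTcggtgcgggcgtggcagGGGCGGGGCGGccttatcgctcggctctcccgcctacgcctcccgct
ITGA2B: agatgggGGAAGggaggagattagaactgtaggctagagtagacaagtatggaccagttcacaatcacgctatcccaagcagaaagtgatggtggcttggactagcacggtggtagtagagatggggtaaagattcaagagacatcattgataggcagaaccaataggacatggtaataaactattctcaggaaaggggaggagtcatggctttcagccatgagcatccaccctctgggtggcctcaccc

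The ITGB1 window shown was the richest in G and C of the 4, at 78.4%, against 70% for ITGA5 and for GP1BB and 48.8% for ITGA2B. A second ITGB1 start in the table, with its window at chr10:32935559-32935808, had 41.6% G and C and 0 GC boxes. The ITGB1 window shown held 3 GC boxes, GP1BB held 2 that overlap each other by 1 base, ITGA5 held 1 and ITGA2B held 0, where 42.6% of the 35116 promoters of the table hold at least 1. All 4 windows held the ETS letters, 3 times in ITGA5 and 1 time in each of the others, as 65.1% of promoters do. The RUNX letters occurred in GP1BB alone of these 4, starting 70 bases before the start site, and occur in 11% of promoters. Neither AGATAA or TGATAA, which 14.6% of promoters hold, nor the STAT letters, which 6.57% hold, were found in these 4 windows. GATA spellings that end in G were not searched or marked. The GP1BB window holds AGATAG on its other strand, and the ITGA2B window holds TGATAG. ETS spellings in which GGAA is followed by a base other than G were likewise not searched or marked. Such letters occur in the ITGA5, ITGB1 and ITGA2B windows, so the ETS counts hold for GGAAG alone. These matches describe the letters and are not evidence of binding.

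Of the 5 members tested, 2 rose (ITGA5 and ITGB1), 1 fell (GP1BB) and 2 did not pass (CD9 and RUNX1) in sh-IUR-5 against sh-luc. This 3 of 5 stands beside the 49.7% of all genes that passed, and the median log2 fold change of the 5 was 0.05. The TMM-scaled values of the groups did not overlap for those 3 members, as for 58.1% of all genes tested. ITGB1 carried the largest change of the 5, a 1.62-fold rise. In RNA from a culture, a change in every cell and a change in the share of cells that express a gene cannot be told apart.

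**Figure D1:**
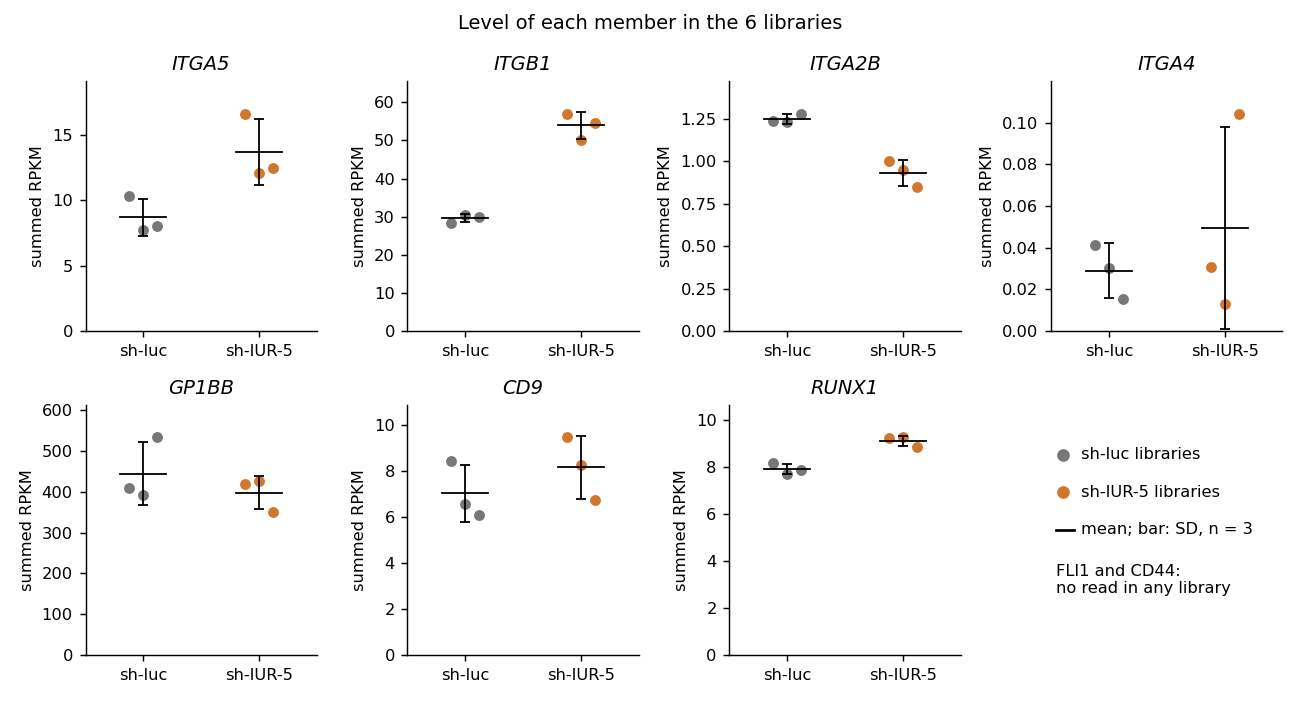
Level of each member with reads, as summed RPKM (vertical axis, from 0, with its own scale for each gene), in the 3 sh-luc libraries (grey) and 3 sh-IUR-5 libraries (orange), with the mean as a line and the SD as a bar. ITGA5, ITGB1 and RUNX1 are higher and ITGA2B lower in all 3 sh-IUR-5 libraries on this scale, while GP1BB, CD9 and ITGA4 overlap.

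ITGB1 (chr10:32887273-33005792, minus strand) encodes the beta1 subunit, the shared partner of many alpha subunits, among them alpha5 in the fibronectin receptor. Its level was 28.4, 30.4 and 30 RPKM in sh-luc libraries 1, 2 and 3 and 57.0, 50.2 and 54.5 RPKM in sh-IUR-5 libraries 1, 2 and 3. Every sh-IUR-5 library lay above every sh-luc library, and the gap was wide against the spread within either group. The mean rose from 29.6 ± 1.07 RPKM to 53.9 ± 3.46 RPKM (SD, n = 3), a log2 fold change of 0.69 (SE 0.069, 95% interval 0.54 to 0.85, edgeR adjusted p = 3.0e-05). The coding sequence of ITGB1 is poor in G and C (42.0%, where the median tested gene has 52%), and once the trends of a library on GC content and on length were removed, the log2 fold change was 0.42 (SE 0.057, edgeR adjusted p = 0.00031).

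The 3 ITGB1 rows moved alike. The pair of rows of 2397 bases, NP_002202.2 and NP_596867.1, which both stand for the common beta1A form, had log2 fold changes of 0.74 (SE 0.084) and 0.61 (SE 0.082). The row of the muscle-type beta1D form, NP_391988.1 (2406 bases), had 0.67 (SE 0.087). All 3 passed the edgeR test over single rows, which 37.3% of the 38204 rows tested passed. They held 5236, 5235 and 4658 reads in all, near-equal numbers for rows that share almost their whole sequence, so that the forms cannot be told apart here and only their sum was used.

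ITGA5 (chr12:54395261-54419266, minus strand) encodes the alpha5 subunit, which pairs with beta1 alone to bind fibronectin. Its single row (NP_002196.4, 3150 bases) stood at 10.3, 7.74 and 8.06 RPKM in sh-luc libraries 1, 2 and 3 and at 16.6, 12.1 and 12.5 RPKM in sh-IUR-5 libraries 1, 2 and 3. The groups did not overlap, and library 1 was the highest of its group in each. Within the set of replicates 2 and 3, and within replicate 1 with its 1 library a group, ITGA5 was higher in sh-IUR-5. The mean rose from 8.71 ± 1.41 to 13.7 ± 2.52 RPKM (SD, n = 3), a log2 fold change of 0.48 (SE 0.131, 95% interval 0.20 to 0.77, edgeR adjusted p = 0.0102). The call was lost narrowly without sh-luc library 3 (0.42, edgeR adjusted p = 0.0503), and with GC and length trends removed the log2 fold change was 0.39 (edgeR adjusted p = 0.0125).

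The ITGB1 to ITGA5 ratio of RPKM was 2.75, 3.93 and 3.72 in sh-luc, against 3.43, 4.15 and 4.38 in sh-IUR-5. These values overlap, and the log2 ratio differed by 0.21 between the group means (exact two-sided permutation test, p = 0.4, where the smallest possible is 0.1). The overlap came from sh-IUR-5 library 1: within replicates 2 and 3 both sh-IUR-5 ratios lay above both sh-luc ratios, and in replicate 1 the sh-IUR-5 ratio was also the higher. Both genes together made up most of the integrin message in every library. ITGA5 held 58.0% to 67.8% of the summed RPKM of the 18 alpha subunits, and ITGB1 held 84.9% to 88.5% of that of the 8 beta subunits in sh-luc and 90.4% to 92.2% in sh-IUR-5.

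**Figure D2:**
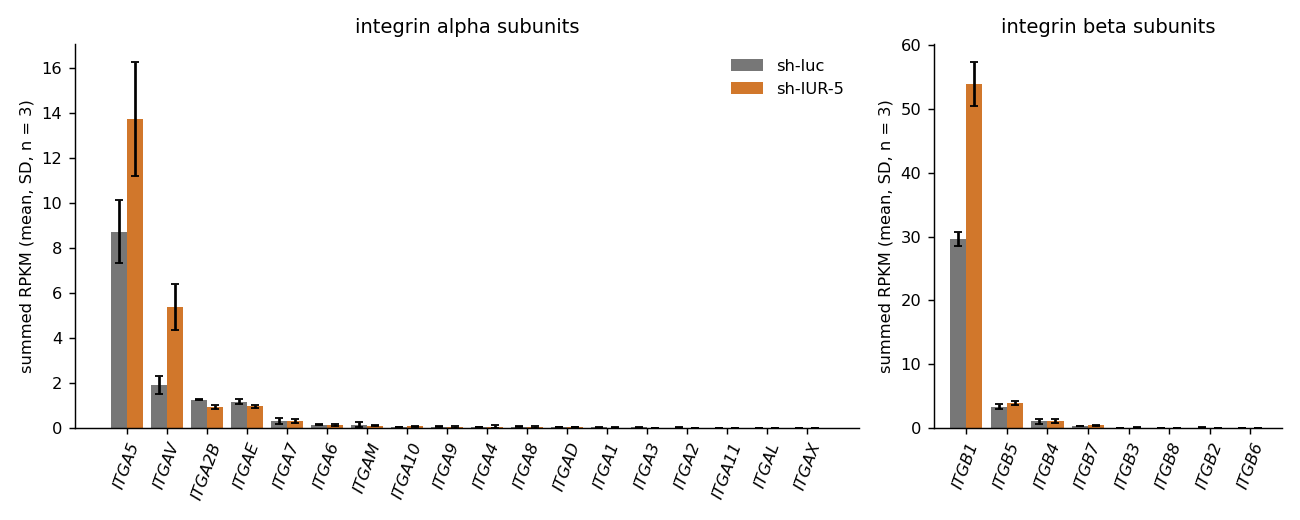
Mean level of the 18 alpha (left) and 8 beta (right) integrin subunits as summed RPKM (vertical axes, from 0), with sh-luc in grey, sh-IUR-5 in orange and the SD of 3 libraries as bars. ITGA5 and ITGB1 are the highest subunits of their panels in both groups, and all but 5 alpha and 3 beta subunits lie too near 0 to see.

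Among the other alpha subunits, ITGAV, the alpha subunit of the vitronectin receptors, rose from 1.89 ± 0.400 to 5.37 ± 1.04 RPKM (SD, n = 3), a log2 fold change of 1.33 (SE 0.166, edgeR adjusted p = 9.75e-05), and its row with the most reads (0.692 RPKM in sh-luc and 1.75 RPKM in sh-IUR-5) passed the minimum only through the sh-IUR-5 libraries. ITGAE, the alpha subunit of the E-cadherin receptor of lymphocytes, fell from 1.16 ± 0.0925 to 0.952 ± 0.0777 RPKM (log2 fold change -0.46, edgeR adjusted p = 0.0254), having passed the minimum only through its sh-luc libraries, and the call was lost with scaling to total reads (-0.28, edgeR adjusted p = 0.134). These and ITGA5 were the 3 alpha subunits tested, 12 others were under the minimum and 3 had no read. ITGB1 was the single beta subunit tested. ITGB5, a beta partner of ITGAV, was at 3.27 ± 0.386 RPKM in sh-luc and 3.86 ± 0.334 RPKM in sh-IUR-5, spread over rows that were each under the minimum, with a log2 fold change of 0.04 (edgeR adjusted p = 0.846 in the fit of all genes with any read).

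ITGA4 (chr2:181457202-181538940, plus strand) encodes the alpha4 subunit, which pairs with beta1 to bind VCAM1 and fibronectin. It had 18 reads in all, 3, 2 and 1 in sh-luc against 3, 1 and 8 in sh-IUR-5. At or near the detection limit in every library, it was too low to judge: the log2 fold change had a 95% interval from -1.33 to 2.32 (edgeR adjusted p = 0.714 in the fit of all genes with any read).

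ITGA2B (chr17:44372180-44389649, minus strand) encodes the alphaIIb subunit, also called CD41, the classical megakaryocyte surface marker. Its 3 rows together held 88, 80 and 82 reads in sh-luc against 96, 70 and 64 reads in the more deeply sequenced sh-IUR-5 libraries, or 1.24, 1.23 and 1.28 RPKM against 1.00, 0.946 and 0.846 RPKM. The groups did not overlap, but the row with the most reads averaged 0.396 RPKM, under the minimum of 1 RPKM set for testing. By that rule on a single row the gene counts as too low to judge, although its 3 rows summed to 1.09 RPKM on average. In the fit of all 15058 genes with any read, of which 33.7% passed, its log2 fold change was -0.62 (SE 0.166, 95% interval -0.96 to -0.28, edgeR adjusted p = 0.00496). With genes of at least 10 reads on average it was -0.63 (edgeR adjusted p = 0.00525), and the exact two-sided permutation test of the row with the most reads gave p = 0.1, the smallest that 3 against 3 libraries allow. Its obligate partner ITGB3 had 6 reads in all.

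GP1BB (chr22:19723539-19724771, plus strand) encodes the beta chain of platelet glycoprotein Ib. It was the most abundant member, with 409, 391 and 534 RPKM in sh-luc libraries 1, 2 and 3 and 418, 426 and 351 RPKM in sh-IUR-5 libraries 1, 2 and 3. On this scale the groups overlapped, also within replicates 2 and 3, and sh-IUR-5 was the higher in replicate 1. Scaled by TMM, the values were 269.9, 259.9 and 348.1 CPM (library-scaled counts) in sh-luc and 238.3, 253.1 and 207.6 in sh-IUR-5, which do not overlap. The log2 fold change was -0.33 (SE 0.111, 95% interval -0.57 to -0.08, edgeR adjusted p = 0.0293), and -0.21 (edgeR adjusted p = 0.0241) with GC and length trends removed, its coding sequence being 77.4% G and C. The call was lost with scaling to total reads (-0.16, edgeR adjusted p = 0.268), without sh-luc library 3 (-0.19, adjusted p = 0.142) and without sh-IUR-5 library 3 (-0.27, adjusted p = 0.0981).

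The partners of GP1BB in the glycoprotein Ib-IX-V receptor were all under the minimum level or without reads. GP1BA, the chain that binds von Willebrand factor, was at 0.974 ± 0.185 RPKM in sh-luc and 0.842 ± 0.148 RPKM in sh-IUR-5 (SD, n = 3). GP9 had 1 read in all and GP5 had none. GP1BB lies at the end of the septin gene SEPTIN5 (chr22:19714503-19724224, plus strand), and 381 of its 618 coding bases fall in annotated exons of SEPTIN5 outside the SEPTIN5 coding sequence. A readthrough gene of both covers all 618. Reads from SEPTIN5 or readthrough transcripts over these bases cannot be told apart from GP1BB reads here. SEPTIN5, named after its values were seen, rose from 255 ± 12.8 to 333 ± 6.22 RPKM (log2 fold change 0.21, SE 0.064, edgeR adjusted p = 0.0179).

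CD9 (chr12:6199715-6238271, plus strand) encodes a tetraspanin of platelets and many other cells that associates with beta1 integrins. Its level was 8.43, 6.56 and 6.08 RPKM in sh-luc, against 9.45, 8.23 and 6.75 RPKM in sh-IUR-5. The groups overlapped, and library 1 was again the highest of each. The log2 fold change was 0.05 (SE 0.165, 95% interval -0.31 to 0.41, edgeR adjusted p = 0.829). Neither row passed the test over single rows: NP_001760.1 had a log2 fold change of -0.10 and XP_005253871.1 one of 0.35 (edgeR adjusted p = 0.217).

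CD44 (chr11:35138882-35232402, plus strand), the hyaluronan receptor, had 0 reads in all 6 libraries over its 13 rows. For its longest row, of 2229 bases, 3 reads would be 0.0428 to 0.0640 RPKM in a single library and 0.0092 RPKM over all 146226777 reads. FLI1 (chr11:128686535-128813267, plus strand), an ETS factor of the megakaryocyte branch, likewise had 0 reads over its 4 rows, with a limit of 0.0701 to 0.105 RPKM per library and 0.0151 RPKM over all libraries for its longest row of 1359 bases. Neither gene gives a fold change. All 77 mitochondrial ribosomal protein genes looked up had reads, so genes of that family were not listed at 0. As no other family was looked up, this does not show whether reads of CD44 or FLI1 were lost in mapping.

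RUNX1 (chr21:34787801-36004667, minus strand) encodes the DNA-binding partner of CBFB and a factor needed for megakaryocyte maturation. Its summed level was 8.16, 7.72 and 7.89 RPKM in sh-luc, against 9.23, 9.26 and 8.86 RPKM in sh-IUR-5. On this scale every sh-IUR-5 library was higher, while the TMM-scaled values overlapped. The log2 fold change was 0.006 (SE 0.095, 95% interval -0.20 to 0.22, edgeR adjusted p = 0.962), and 0.18 (edgeR adjusted p = 0.149) when scaled to total reads. Its 9 rows share most of their sequence and none of the 4 rows tested passed. The row of the long RUNX1c form (NP_001745.2) had a log2 fold change of -0.34 (edgeR adjusted p = 0.169), the row of RUNX1b (NP_001001890.1) one of -0.03, and the row of the short RUNX1a form (NP_001116079.1), with 83 reads in all, was under the minimum.

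**Figure D3:**
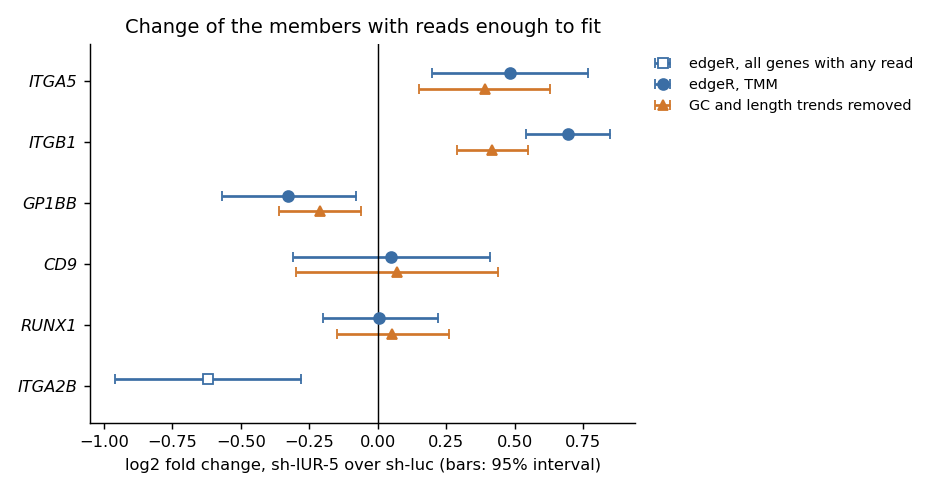
Log2 fold change of sh-IUR-5 over sh-luc with its 95% interval (horizontal axis) for the 5 members tested (circles, edgeR with TMM), the same with GC and length trends removed (triangles), and ITGA2B from the fit of all genes with any read (open square). ITGA5 and ITGB1 lie to the right of 0 and GP1BB to the left under both, and the intervals of CD9 and RUNX1 span 0.

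In order of level, as RPKM over all 6 libraries, GP1BB (421) stood far above ITGB1 (41.7), followed by ITGA5 (11.2), RUNX1 (8.52), CD9 (7.58), ITGA2B (1.09) and ITGA4 (0.0392). RUNX1 and CD9 overlapped within each group, and ITGA5 overlapped both of them in sh-luc but lay above both in sh-IUR-5. The other neighbours in this order did not overlap.

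The pattern of each tested member over the 6 libraries was set beside that of every tested gene by Pearson's r on log2 TMM-scaled counts, as a description over 6 points that share their libraries and their groups. The most alike was MED12 for ITGA5 (r = 0.9998), CNOT1 for ITGB1 (r = 0.9995), CFL1 for GP1BB (r = 0.9946), TSLP for CD9 (r = 0.9753) and KLRF1 for RUNX1 (r = 0.9366). The number of genes with r over 0.95 was 1027 for ITGB1, 191 for ITGA5, 33 for GP1BB, 5 for CD9 and 0 for RUNX1. MED12, a Mediator subunit, went from 6.83 ± 1.05 to 10.6 ± 1.83 RPKM (SD, n = 3), highest like ITGA5 in library 1 of each group.

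The wider lists to which the members belong are given by their counts, beside the 49.7% of all tested genes that passed. Of the 28 megakaryocyte and platelet surface and granule genes, 10 had no read, among them the platelet chemokines PF4 and PPBP, 13 were under the minimum and 5 were tested, of which 3 rose and 2 fell. P2RY1, a platelet ADP receptor, went from 0.587 ± 0.0778 to 1.44 ± 0.253 RPKM (log2 fold change 1.13, edgeR adjusted p = 0.00517), and it passed the minimum only through its sh-IUR-5 libraries. TUBB1, the platelet beta-tubulin, rose by a log2 fold change of 0.83 (4.38 ± 0.680 to 8.76 ± 2.57 RPKM, edgeR adjusted p = 0.0037), and F2R, the thrombin receptor PAR1, by 0.76 (1.45 ± 0.159 to 2.83 ± 0.382 RPKM, edgeR adjusted p = 0.00636). GP6, the platelet collagen receptor, fell from 64.1 ± 5.35 to 41.1 ± 1.35 RPKM (log2 fold change -0.81, edgeR adjusted p = 2.641e-05). Of that level 99.2% lay on 1 of its 3 rows (NP_001077368.2), so the value is that row's and not one of sequence shared by the GP6 rows.

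Of 25 transcription factors of the megakaryocyte branch and relatives of RUNX1 and of the ETS family, 17 were tested, of which 8 rose, 3 fell and 6, RUNX1 among them, did not pass (median log2 fold change 0.05). GABPA, an ETS factor, rose from 7.53 ± 0.893 to 15.5 ± 0.549 RPKM (log2 fold change 0.87, edgeR adjusted p = 7.976e-05). TAL1, a hematopoietic helix-loop-helix factor, rose by 0.75 (edgeR adjusted p = 0.00017), the ETS factor ELF1 by 0.74 (adjusted p = 0.000865) and MYB, a factor of blood progenitors, by 0.60 (adjusted p = 9.295e-05) on the log2 scale. CBFB, the partner of RUNX1, rose by 0.56 (9.67 ± 0.715 to 16.0 ± 0.773 RPKM, edgeR adjusted p = 0.00272). The 3 that fell, GATA1 (-0.32), NFE2 (-0.28) and LYL1 (-0.43), did not pass when scaled to total reads.

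Of 34 genes whose proteins activate integrins or link them to actin and signaling, 18 were tested, of which 8 rose, 3 fell and 7 did not pass, 61.1% called, with a median log2 fold change of 0.16. Scaled to total reads, 11 were higher and 2 lower. CRKL, an adaptor downstream of Bcr-Abl and integrins, rose from 30.9 ± 0.805 to 67.6 ± 4.09 RPKM (log2 fold change 0.96, edgeR adjusted p = 1.953e-05). LIMS1, a partner of integrin-linked kinase, rose by 0.90 (edgeR adjusted p = 0.000138), vinculin (VCL) by 0.71 (adjusted p = 4.343e-05) and RAP1B, the platelet small GTPase, by 0.68 (adjusted p = 0.000231) on the log2 scale. Talin 1 (TLN1) rose by 0.31 (edgeR adjusted p = 0.0349), a call that was lost with GC and length trends removed (0.13, edgeR adjusted p = 0.193). The 3 that fell were CIB1 (-0.57, edgeR adjusted p = 5.303e-05), ITGB1BP1 (-0.41, adjusted p = 0.00252) and PARVB (-0.29, adjusted p = 0.0298). CIB1 and ITGB1BP1 also passed as lower when scaled to total reads and with GC and length trends removed. PARVB did not pass when scaled to total reads.

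Of 18 tetraspanins and their partners, 11 were tested, of which 1 rose, 3 fell and 7, CD9 and CD81 among them, did not pass, against 2 higher and 2 lower when scaled to total reads. PTGFRN, a partner of CD9 and CD81, rose from 3.52 ± 0.733 to 7.63 ± 0.625 RPKM (log2 fold change 0.95, edgeR adjusted p = 0.000213). TSPAN15, a partner of the protease ADAM10, fell by 0.90 (edgeR adjusted p = 0.000241) and CD63, a tetraspanin of late endosomes and platelet granules, by 0.59 on the log2 scale (673 ± 20 to 499 ± 16.6 RPKM, adjusted p = 3.952e-05). The TSPAN15 value rests on 1 predicted row of 5 (XP_016871499.1), which held 95.4% of its level. CD151, a partner of laminin-binding integrins, fell by 0.20 (edgeR adjusted p = 0.0205) and did not pass when scaled to total reads or with GC and length trends removed.

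Of 17 genes around CD44 and its ligand, 7 were tested, of which 2 rose, 1 fell and 4 did not pass. Moesin (MSN), a linker of CD44 to actin, rose from 49.3 ± 0.586 to 85.6 ± 6.38 RPKM (log2 fold change 0.62, edgeR adjusted p = 3.994e-05), HMMR, another hyaluronan-binding protein, by 0.24 (adjusted p = 0.0153), and the hyaluronan synthase HAS3 fell by 0.47 on the log2 scale (adjusted p = 0.00447). The HAS3 value is that of 1 short row of 5 (NP_619515.1), which held 99.7% of its level. With GC and length trends removed HMMR no longer passed (0.04, edgeR adjusted p = 0.591), while ezrin (EZR, -0.17, adjusted p = 0.0196) and radixin (RDX, -0.32, adjusted p = 0.00062) passed as lower. Scaled to total reads, the values of EZR and RDX were 0.09 and 0.08 and neither passed. Of 32 other adhesion molecules, 12 were tested, of which 1 rose, 3 fell and 8 did not pass, against 3 higher and 2 lower when scaled to total reads. JAM2, a junctional adhesion molecule, fell from 40.8 ± 4.35 to 24.7 ± 1.46 RPKM (log2 fold change -0.90, edgeR adjusted p = 4.478e-05), with 99.9% of its level on 1 of 3 rows (NP_001257337.1). ICAM4, a red cell adhesion molecule, fell by 0.42 (edgeR adjusted p = 0.00945, not passed when scaled to total reads) and ICAM3 by 0.41 (adjusted p = 0.00127), while F11R, another junctional adhesion molecule, rose by 0.35 (adjusted p = 0.00179) on the log2 scale.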

How the data were processed

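RNA-seq of 3 sh-IUR-5 and 3 sh-luc libraries was analysed. The authors deposited, for each RefSeq protein accession, read counts without normalization and RPKM values, which equal reads divided by row length and total counted reads in all 109018 rows (relative tolerance 1e-06). Per the labels the build was hg38 and the tools CASAVA 1.8, Trimmomatic 0.32, Bowtie2 2.1.0 and SAMtools 0.1.19. The rule for reads fitting several rows is not given in the sources used here. Deposited pooled values and comparisons (fold changes, p-values) were not used.

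Symbols were matched for 64.7% of rows by accession, and unmatched rows hold 15.6% of reads. Counts were summed per gene. Genes whose row with the most reads averaged at least 1 RPKM (8872 genes) were tested with edgeR 4.0.16 (R 4.3.3, TMM, quasi-likelihood, two-sided, Benjamini-Hochberg over all tested genes, threshold 0.05), and lower genes in a fit of all 15058 genes with any read. Single rows were tested likewise, and single values by an exact permutation test. The TMM factors were 0.935 to 0.952 in sh-luc and 1.045 to 1.09 in sh-IUR-5. GC and length trends were removed with mgcv 1.9.3 (GC known for 98.8% of tested genes). Scripts were tested on simulated data. Coordinates are GENCODE release 44 on hg38.

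The members and lists were chosen with earlier results of these data known. Named genes are the members, up to 4 genes per list with the largest change among those past the threshold whose groups do not overlap, TFRC, GAPDH and the gene most alike to each tested member. SEPTIN5, CBFB, GATA1, NFE2, LYL1, TLN1, CIB1, ITGB1BP1, PARVB, CD81, EZR and RDX were named after their values were seen. The same holds for partner subunits, PF4, PPBP and the markers without reads. For 1 listed gene no value is given. No replicate pair agreed within sampling noise (chi-square per gene of 3.63 to 21.28). The p-values measure the spread between 3 groups of cells of one line each.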

Additional observations from a re-analysis of the deposited data

How the results depend on the processing

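Over 18 alternatives (6 that leave out a library, other scalings, filters, row choices and tools, added terms, and trend removal, with 1 fit of the genes with a GC value added after seeing the data) ITGB1 kept its direction and its call, with a log2 fold change of 0.42 to 0.87. ITGA5 kept its direction (0.34 to 0.66) and lost its call in 1, and GP1BB kept its direction (-0.41 to -0.16) and lost its call in 3, all named above. RUNX1 (-0.34 to 0.18) and CD9 (-0.08 to 0.35) took both signs and passed in none. The number of members past the threshold was 3, and 1 to 3 with a library left out, the 1 being ITGB1 without sh-luc library 3. It was 2 with total reads and 4 where ITGA2B entered the test. The number of genes past the threshold was 4408, against 3605 to 4368 with a library left out and 3730 to 5521 otherwise.

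Replicate numbers were not taken as pairing: the deviations of same-numbered libraries correlated at 0.473, 0.188 and -0.017, so that not every library correlated best with its own number. With the replicate number as a block 5255 genes passed, and 5204 with GC and length trends removed too. The block changed no member's call (ITGA5 0.48, edgeR adjusted p = 7.99e-07; GP1BB -0.32, adjusted p = 0.00059). ITGA4 had 18 reads in all and FLI1 and CD44 had 0. Whether depth, absent expression or reads lost in mapping lies behind these counts was not tested. ITGA2B was left out of the test by the minimum level set on a single row.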

Other observations

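Among the K562 and red cell markers, 4 of 15 rose, 8 fell and 3 did not pass, at a median log2 fold change of -0.29. The share called was 80%, beside 49.7% of all genes tested. GATA1 and GYPC did not pass when scaled to total reads, nor did GYPC with GC and length trends removed. TFRC, the transferrin receptor, rose from 67.6 ± 1.89 to 168 ± 20.4 RPKM (SD, n = 3), a log2 fold change of 1.14 (edgeR adjusted p = 1.953e-05), and of 0.88 with GC and length trends removed. The embryonic globins HBZ (-0.85, edgeR adjusted p = 9.4e-05) and HBE1 (-0.67, adjusted p = 5.883e-05) and the alpha-globin HBA2 (-0.65, adjusted p = 5.983e-05) fell, with HBA1 and HBA2 near-identical copies whose reads cannot be told apart. With GC and length trends removed, HBZ was at -0.54, HBE1 at -0.50 and HBA2 at -0.34, and each still passed. GAPDH had a log2 fold change of -0.16 (edgeR adjusted p = 0.0501).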
